A study of Mus musculus with 34 samples.

Results

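Fibroblasts of the omentum were set against fibroblasts of epididymal fat, with 3 RNA-sequencing libraries of each among the 34 libraries of the series. The 6 libraries were taken by their titles, which name the tissue and the replicate, and all 25705 genes with enough counts for a test entered the comparison. Both groups are labelled as PDGFRA-positive, GFP-negative cells of visceral fat. They were sorted from digested mouse tissue by the gate CD45-CD31-Epcam-PDPN+PDGFRA+ into TRIZOL, and polyA RNA was sequenced. Strain, genotype, sex, age and any pooling of animals are not given in the sources used here. No label says that the 3 replicates of a group come from separate animals, so p-values measure the spread between these libraries, which may be technical. The other libraries are fibroblasts of 7 further tissues and PDPN-positive, PDGFRA-negative mesothelial cells of 3 visceral fats.

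The omentum is an apron of peritoneal fat that carries clusters of lymphocytes and macrophages, called milky spots, under a sheet of mesothelial cells. Epididymal fat is the large pad beside the testis and is the visceral depot most used in studies of the mouse. In both, PDGFRA-positive fibroblasts lay down the matrix between fat cells, include the progenitors of new fat cells and release chemokines, which draw immune cells into the tissue. The labels and the design text state no question for this pair of tissues beyond a comparison of tissue environments.

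Library totals were 35223514 to 39979671 counts for omentum and 28778822 to 34617358 counts for epididymal fat. Across genes, log-scale values correlated at 0.963 to 0.977 between libraries of a group and at 0.928 to 0.946 between groups. The first principal component, with 52.4% of the variance, parted the groups. Omentum replicate 2 lay apart from the other omentum libraries on the second component (20.4%) and had a count in 34253 genes, against 26112 to 28308 in the other 5 libraries. Pdgfra, the receptor used for the sort, measured 659, 646 and 766 CPM in omentum and 1020, 1034 and 1147 CPM in epididymal fat, where CPM is a count scaled to the library total. Its log2 fold change of omentum over epididymal fat was -0.63 ± 0.18 (SE). Ptprc, which encodes CD45, stayed at or below 5.10 CPM and Epcam at or below 0.117 CPM in all 6 libraries.

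Markers of other cell types differed between the groups, and their values stand beside the results below. Sums of markers are scaled to the library total without the scaling factor, unlike the values of single genes. The 10 pancreatic acinar enzymes summed to 2750, 816 and 3270 CPM in omentum replicates 1, 2 and 3 and to 0.730 to 1.36 CPM in epididymal fat, and 10 of 10 were higher in omentum. Plasma cell and immunoglobulin genes summed to 1280 to 2230 CPM against 24.7 to 29.4 CPM, and 8 of 8 were higher. Ighm, with a mean of 1010 CPM in omentum, lost its call without any 1 of the epididymal libraries (adjusted p = 0.0511, 0.0616 and 0.0529). Igha lost its call with DESeq2 (adjusted p = 0.286) and in the fit of the compared groups alone (adjusted p = 0.0765). Leukocyte markers summed to 415 to 583 CPM against 40.7 to 99.1 CPM. Of these, 5 of 18 were higher, among them the B cell genes Cd79a, Cd79b and Ms4a1 and the class II chaperone gene Cd74, which alone gave 296 to 463 CPM in omentum. The T cell genes Cd3e (0.0507 to 0.149 CPM against 0 to 0.0708 CPM) and Cd3d (1.82 to 2.49 CPM against 0.624 to 2.10 CPM) overlapped between the groups and were not called. The lean was not limited to B cell genes, since all 18 had log2 fold changes above 0 (0.79 to 5.55, median 1.69). In 14 of the 18 the libraries of the groups did not overlap, as in 32.3% of all genes tested. Among them, the myeloid gene Lyz2 had means of 81.5 CPM against 23.4 CPM. Leaving out 1 library at a time gave 3 to 5 higher leukocyte markers, the 3 without epididymal replicate 2, where Cd74 lost its call (adjusted p = 0.0558). The alternative fit with the most gave 13.

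Mesothelial markers summed to 607 to 989 CPM in omentum and 180 to 258 CPM in epididymal fat, and 6 of 16 were higher in omentum: Bnc1, Lrrn4, Krt19, Upk3b, Gpm6a and Nkain4. These 6 stood at 5.06% to 25.9% of their mean in omentum mesothelial cells. The keratins Krt7, Krt8 and Krt18 and Msln, defining genes of mesothelium, stood at 1.81%, 0.872%, 0.432% and 0.877% of the omentum mesothelial mean and were not called, and Calb2 had no count in any of the 6 libraries. Mural markers summed to 280 to 381 CPM against 137 to 197 CPM, with Abcc9, Kcnj8, Myh11 and Des higher, and Cnn1 lower. The median log2 fold change of the 11 was -0.68, against the direction of their sum. Rgs5 (4.63 to 5.68 CPM against 9.86 to 17.7 CPM), Acta2 (33.8 to 37.3 CPM against 38.8 to 88.3 CPM), Tagln (10.5 to 13.1 CPM against 19.6 to 26.2 CPM), Mcam (1.19 to 1.77 CPM against 3.33 to 3.86 CPM) and Cspg4 (0.507 to 1.04 CPM against 1.56 to 2.04 CPM) had lower values in each omentum library without being called. Myh11 lost its call without omentum replicate 1 or epididymal replicate 1 or 3 (adjusted p = 0.0583, 0.0921 and 0.062), and Des without omentum replicate 1 or 3 or epididymal replicate 2 or 3 (adjusted p = 0.0826, 0.0676, 0.0574 and 0.107). Endothelial markers summed to 83.8 to 130.0 CPM against 383 to 519 CPM, of which Tek alone gave 342 to 444 CPM in epididymal fat. Cldn5 was lower as well (0.329 to 1.08 CPM against 3.77 to 9.42 CPM), and Lyve1 higher (5.55 to 8.96 CPM against 0.802 to 1.70 CPM), though not without any 1 of the 6 libraries (adjusted p from 0.0561 without omentum replicate 1 to 0.172 without epididymal replicate 2). Schwann cell markers summed to 32.1 to 34.5 CPM against 6.99 to 9.80 CPM. Erythroid genes summed to 1.28 to 3.97 CPM against 5.38 to 12.1 CPM, and the sums of epithelial (3.12 to 4.77 against 1.90 to 3.27 CPM) and epididymal epithelial markers (6.05 to 7.30 against 6.11 to 12.3 CPM) overlapped. Within these 2 lists Krt14, a keratin of basal epithelium, was lower, with no count in omentum and 0.402 to 1.66 CPM in epididymal fat, as was Crisp1, which had 5.17 CPM in epididymal replicate 2 and at most 0.398 CPM elsewhere and lost its call without omentum replicate 1 or 3 (adjusted p = 0.0746 and 0.0685). The part of these other cells in the differences below was not tested. In sorted bulk samples, fewer cells of a type and less RNA per cell cannot be told apart. Immediate early genes, which often rise while tissue is digested, summed to 13300 to 15600 CPM in omentum and 9770 to 12100 CPM in epididymal fat. Of the 15, Ier3 was the 1 called (2.86 ± 0.35), and the median log2 fold change was 0.41. Nr4a1 (1736 to 2633 CPM against 595 to 1042 CPM, adjusted p = 0.0687) and Fosb (773 to 1284 CPM against 344 to 531 CPM, adjusted p = 0.079) had higher values in each omentum library and Fos lower ones (3287 to 3794 CPM against 3985 to 4769 CPM), and none of these 3 was called.

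**Figure D1:**
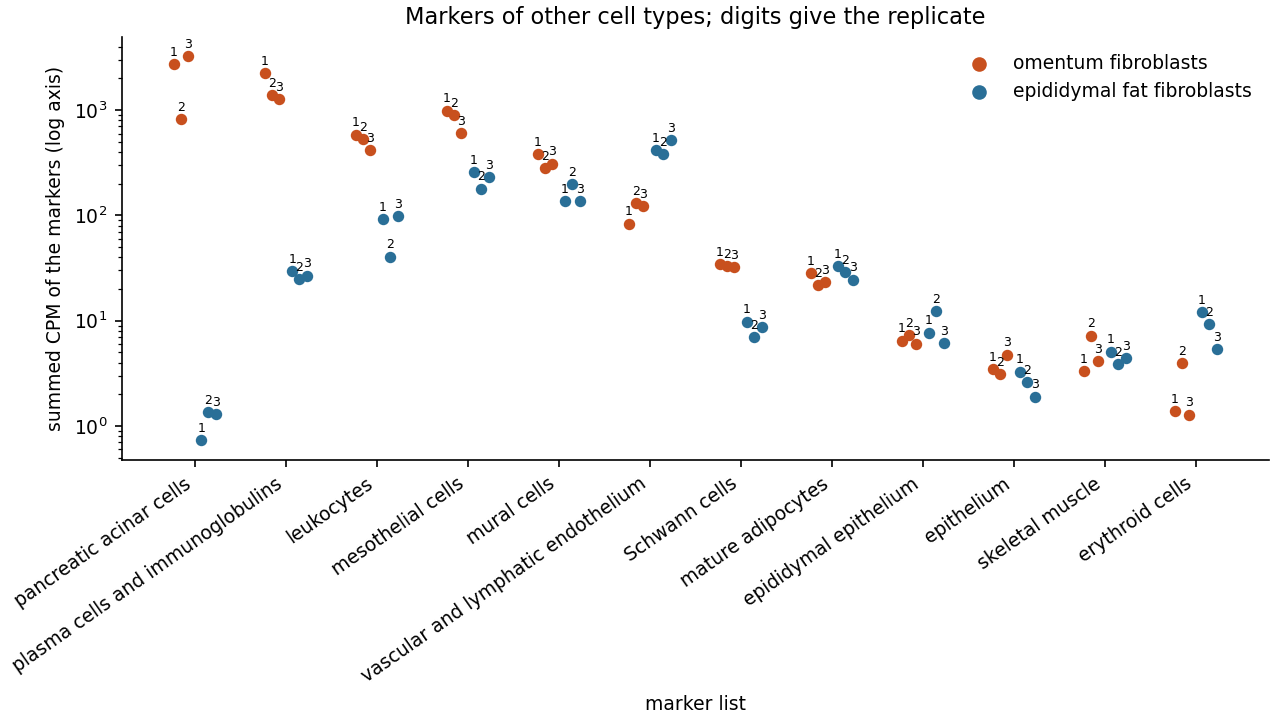
Summed CPM of marker genes of other cell types (log axis) in each of the 3 omentum and 3 epididymal fibroblast libraries, 1 point a library, with the replicate number above it. Acinar enzymes reach 3270 CPM in omentum replicate 3 and at most 1.36 CPM in epididymal fat, and mesothelial markers lie at 607 to 989 CPM against 180 to 258 CPM.

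Across all genes, 2066 differed between the fibroblasts of the 2 fats, and more were higher in omentum than lower. A gene was called when edgeR's quasi-likelihood test gave a Benjamini-Hochberg adjusted p under 0.05 and the log2 fold change was at least 1 in size. That held for 8.04% of the 25705 genes, with 1385 higher in omentum (5.39%) and 681 lower (2.65%). Over the whole table the log2 fold changes had a median of 0.09. The libraries of the 2 groups did not overlap in 8300 genes (32.3%) and in 2022 of the 2066 called. Of the genes called higher, 564 reached a mean of 10 CPM in omentum and 231 stayed under 1 CPM, and of those called lower 343 reached 10 CPM in epididymal fat. Leaving out 1 library at a time gave 1020 to 1431 higher and 513 to 669 lower genes.

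**Figure D2:**
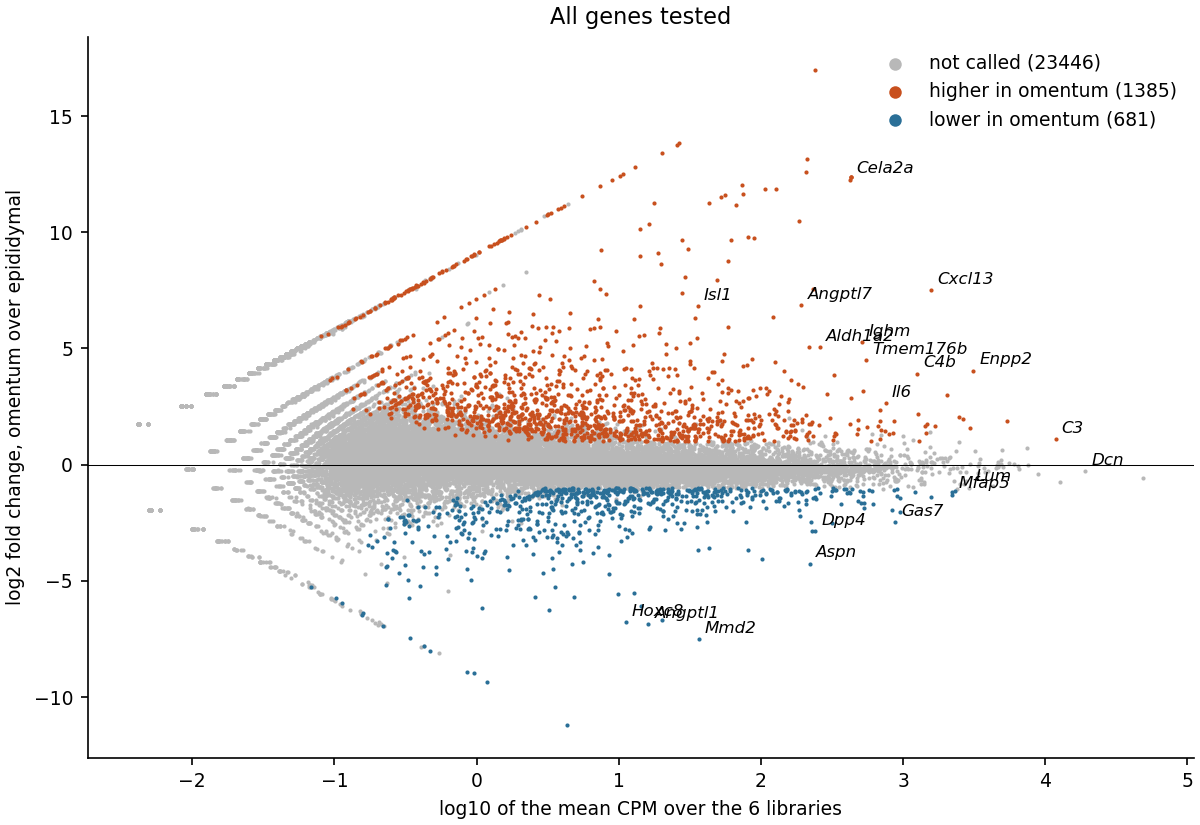
Log2 fold change of omentum over epididymal fibroblasts (vertical) against log10 of the mean CPM over the 6 libraries (horizontal), 1 point a gene, coloured by call; 193 tested genes with no count in these 6 libraries are not drawn. The outer edges are genes with no count in 1 group, whose fitted fold change is no measured ratio, and 1385 genes lie in the upper and 681 in the lower coloured set.

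The largest fold changes toward omentum were in genes known from pancreatic acinar cells and plasma cells. All 12 named by size belonged to families of secretory enzymes of the exocrine pancreas (Amy2a1, Amy2b, Amy2a2, Amy2a3, Amy2a4, Try4, Pnliprp2 and Rnase1) or immunoglobulin segments (Ighv11-2, Igkv14-126, Igkv12-89 and Igkv4-91). Amy2a1 measured 590.0, 84.8 and 769 CPM in omentum and had no count in epididymal fat, which puts it at least 14600-fold higher against a floor of 3 counts over the epididymal group. Its call was lost in 6 alternative fits, among them those without omentum replicate 3 and without epididymal replicate 1, 2 or 3 (adjusted p = 0.0504, 0.0846, 0.096 and 0.079). Amy2b lost its call without any 1 of the epididymal libraries (adjusted p = 0.0534, 0.0631 and 0.0531) and Pnliprp2 without epididymal replicate 2 (adjusted p = 0.0517). Igkv12-89 lost its call with DESeq2 (adjusted p = 0.254). Amy2b is annotated as an unprocessed pseudogene. Amy2a2, Amy2a3 and Amy2a4 are near-identical copies with the same means, 860 CPM in omentum and 0.162 CPM in epididymal fat. They are therefore not separate measurements among the 12, and which copy their reads came from is uncertain. The amylase, like the acinar sum above, was lowest in omentum replicate 2.

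With immunoglobulin genes and pancreatic secretory families set aside, a choice made after the values were seen, the largest differences were in chemoattractants, adhesion molecules and secreted factors. Cxcl13, the chemokine that draws B cells, measured 3415, 2332 and 3696 CPM in omentum and 17.6, 17.4 and 16.8 CPM in epididymal fat, a log2 fold change of 7.51 ± 0.65 (adjusted p = 6.5e-09). Chl1, an adhesion molecule of the L1 family, measured 56.3, 21.2 and 40.7 CPM against 0.177, 0 and 0.124 CPM. Angptl7, a secreted angiopoietin-like protein, measured 360.1, 459.8 and 324 CPM against 4.81, 2.62 and 2.53 CPM. In each of the 3 genes the lowest omentum library lay far above the highest epididymal one. Isl1, a LIM homeobox factor, measured 73.3, 64.3 and 76.2 CPM against 1.17, 0.0594 and 0.711 CPM. Hdc, which makes histamine from histidine, stood at 217 to 270.4 CPM against 2.07 to 4.11 CPM, and Alox15, a lipoxygenase, at 62.8 to 76.7 CPM against 0.119 to 1.70 CPM. Others of this set of 12 were Sez6l, Krt76, Egln3, Gbp8 and Cryaa, with log2 fold changes from 5.94 to 7.37.

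Mesothelial cells of the omentum carried several of these transcripts as well. Omentum fibroblasts held 40.8% of the omentum mesothelial mean of Egln3, 46.5% of Krt76, 47.8% of Isl1 and 80.4% of Alox15. The highest called mesothelial marker stood at 25.9%, and the part of mesothelial cells in these values was not tested. Cxcl13 (4250%), Angptl7 (1140%), Cryaa (666%), Sez6l (186%), Gbp8 (143%) and Chl1 (102%) stood above the mesothelial mean, as did Hdc, at 239 CPM against 79.9 CPM.

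On the epididymal side, the largest differences were Mmd2, Angptl1, Hoxc8, Enpp6, Epyc, Lrrn1, Mgam, Duoxa1, Aspn, Pde11a, Apod and Depp1. Aspn, a small leucine-rich proteoglycan that binds collagen and TGF-beta, measured 24.7, 19.1 and 21.5 CPM in omentum and 465, 375 and 415 CPM in epididymal fat, a log2 fold change of -4.26 ± 0.32. Angptl1, a secreted angiopoietin-like protein, measured 0.177, 0.348 and 0.293 CPM against 30.02, 34.4 and 31.8 CPM. Omentum was thus near the floor for Angptl1, and the epididymal libraries lay within a narrow band. Apod, a lipid-binding apolipoprotein, stood at 8.58 to 13.6 CPM against 184 to 209 CPM. Mmd2, a membrane protein of the PAQR family, stood at 0.228 to 0.586 CPM against 56.04 to 81.6 CPM, and Epyc, a small leucine-rich proteoglycan, at 0.176 to 0.684 CPM against 23.8 to 31.03 CPM. The 12 genes fell by 3.87 to 7.50 on the log2 scale from epididymal fat to omentum.

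**Figure D3:**
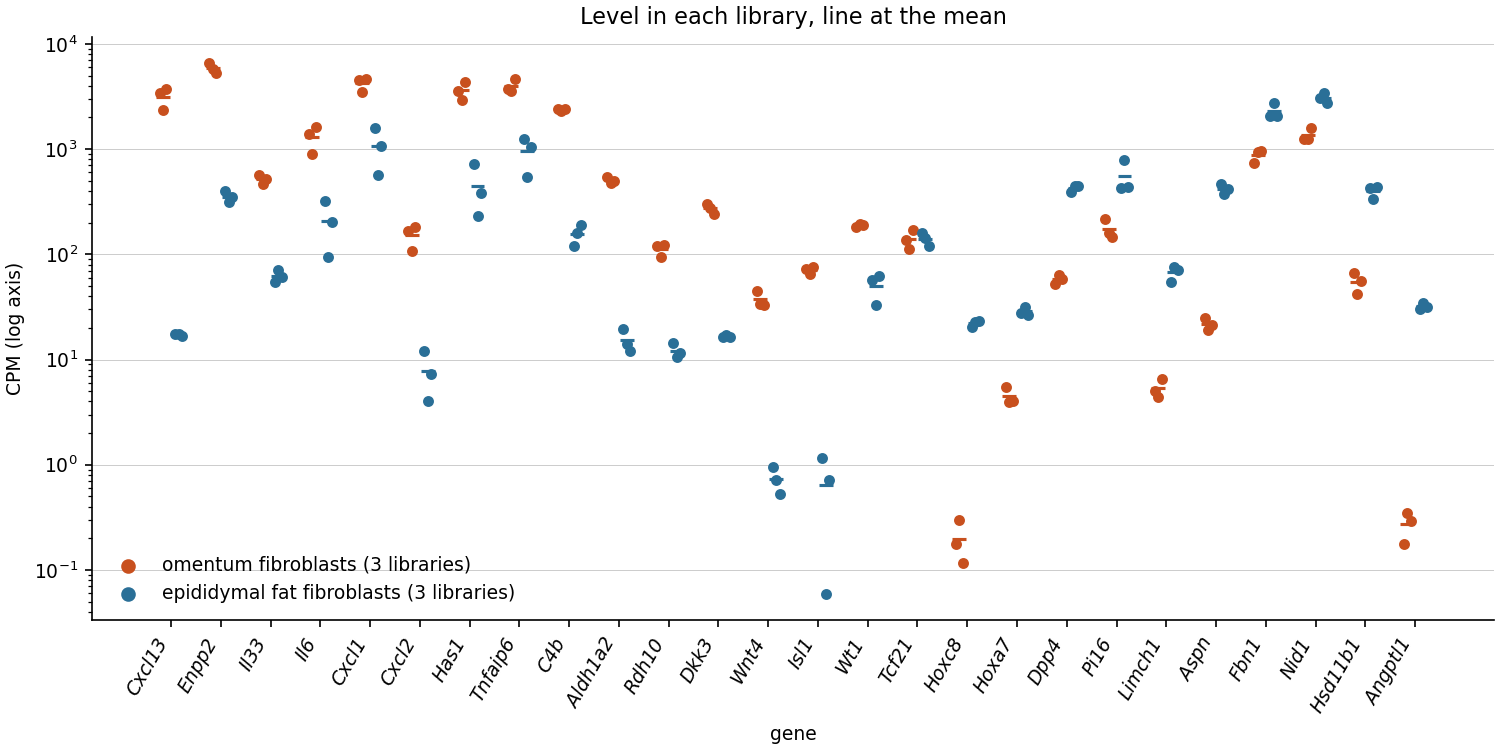
CPM of genes described in the text (log axis) in each omentum and epididymal fibroblast library, with a line at each group's mean. The groups stand apart for the chemokines, Aldh1a2, Hoxc8 and Dpp4, and Tcf21 overlaps, at 112 to 169 CPM against 120.4 to 159.7 CPM.

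Inflammatory chemokines, cytokines and feedback genes leaned to omentum. Of 28 tested genes, 18 were higher and 0 lower, where 5.39% and 2.65% of all genes were, and their median log2 fold change was 1.70 against 0.09. These shares of all genes are the background for each list count in the text. Chemokines guide leukocytes through receptors on their surface. Cxcl1, an attractant of neutrophils, measured 4513, 3520 and 4662 CPM in omentum and 1572, 569 and 1070 CPM in epididymal fat (1.98 ± 0.46, adjusted p = 0.00394). Cxcl2, another neutrophil attractant, measured 168, 106 and 179.9 CPM against 12.1, 4.07 and 7.36 CPM (4.28 ± 0.67). Neither gene's groups overlapped, and epididymal replicate 2 was the lowest library for both. Cxcl5 (4.15 ± 0.83), Cxcl3 (5.34 ± 0.84), Cxcl10 (3.46 ± 0.49) and Cxcl9 (2.28 ± 0.35) were higher as well. Ccl2 and Ccl7, which attract monocytes, were higher by 1.75 ± 0.52 and 1.65 ± 0.50. Both lost their calls without omentum replicate 3 (adjusted p = 0.0988 and 0.0776), epididymal replicate 2 (0.161 and 0.168) or epididymal replicate 3 (0.0835 and 0.0776), and Ccl7 also without omentum replicate 1 or 2 (0.064 and 0.0534). Ccl11, the eosinophil attractant, was at 1274 to 1569 CPM against 1117 to 1448 CPM and was not called.

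Among the cytokines, Il6, which signals through gp130, measured 1394, 892 and 1621 CPM in omentum and 320.0, 94.8 and 204 CPM in epididymal fat (2.66 ± 0.50, adjusted p = 0.000566). Il33, a nuclear alarmin of stromal cells that acts on innate lymphoid cells, measured 571, 466 and 521 CPM against 54.9, 71.6 and 61.1 CPM (3.05 ± 0.26, adjusted p = 1.9e-10). Il34, a ligand of the macrophage growth factor receptor CSF1R, measured 137, 108 and 105 CPM against 18.7, 14.9 and 19.01 CPM (2.74 ± 0.21). Its groups lay far apart, whereas Csf1, the other ligand of that receptor, had 378 to 489 CPM against 276 to 337 CPM and was not called. Csf3, the granulocyte growth factor, was higher by 5.90 ± 1.10 at 2.76 to 8.40 CPM in omentum. Osmr, a receptor of the Il6 family, was higher by 1.30 ± 0.28, and Ptgs2, the inducible cyclooxygenase, by 2.34 ± 0.47.

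NF-kB factors drive many of these genes and are held in check by proteins they induce. Of such feedback genes, Tnfaip3 was higher by 2.85 ± 0.48 and Nfkbia by 1.55 ± 0.34. Tnfaip2 and Nfkbiz, also in the list, were higher by 1.92 ± 0.32 and 1.41 ± 0.43. The call of Nfkbiz was lost without omentum replicate 1 or 3 or epididymal replicate 2 or 3 (adjusted p = 0.131, 0.0641, 0.145 and 0.11). The summed level of immediate early genes was also above that of epididymal fat in each omentum library (13300 to 15600 CPM against 9770 to 12100 CPM), and its part in these values was not tested. Over the list, 15 to 18 genes were called when 1 library was left out, and 13 with omentum replicate 2 as the only omentum library.

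The promoters of these genes were read from the RefSeq table (build GRCm38.p6, 250 bases before to 50 after the start). Of the 29 listed genes, 21 had a promoter there. In 9 of these (42.9%) at least 1 promoter held the NF-kB type motif GGGNNTTTCC on either strand, against 1.63% of the 32851 promoters in the table. The first share counts genes, which can have several promoters, and the second counts promoters, so they are not on the same measure. Of the 12 genes both called and in the table, 6 held it, namely Cxcl1, Cxcl2, Cxcl3, Il6, Nfkbia and Tnfaip3. A match describes letters only. The promoters of a cytokine, a pair of chemokines and a feedback gene are shown because they hold the motif and their transcripts were higher in omentum. They lie at chr5:30012864-30013163 (plus strand) for Il6, chr5:90890995-90891294 (plus strand) for Cxcl1, chr5:90903649-90903948 (plus strand) for Cxcl2 and chr12:55492598-55492897 (minus strand) for Nfkbia, each written 5′ to 3′ along its gene with the motif in capitals.
Il6: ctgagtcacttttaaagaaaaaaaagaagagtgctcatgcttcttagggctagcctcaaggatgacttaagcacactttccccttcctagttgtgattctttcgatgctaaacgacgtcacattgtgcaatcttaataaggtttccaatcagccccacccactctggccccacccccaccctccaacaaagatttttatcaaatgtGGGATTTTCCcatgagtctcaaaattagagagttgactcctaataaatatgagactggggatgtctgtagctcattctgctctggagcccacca
Cxcl1: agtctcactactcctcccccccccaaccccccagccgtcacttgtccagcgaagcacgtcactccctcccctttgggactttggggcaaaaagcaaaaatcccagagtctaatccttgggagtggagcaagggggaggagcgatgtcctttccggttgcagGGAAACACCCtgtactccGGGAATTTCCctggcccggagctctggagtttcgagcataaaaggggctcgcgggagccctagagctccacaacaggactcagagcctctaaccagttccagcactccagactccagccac
Cxcl2: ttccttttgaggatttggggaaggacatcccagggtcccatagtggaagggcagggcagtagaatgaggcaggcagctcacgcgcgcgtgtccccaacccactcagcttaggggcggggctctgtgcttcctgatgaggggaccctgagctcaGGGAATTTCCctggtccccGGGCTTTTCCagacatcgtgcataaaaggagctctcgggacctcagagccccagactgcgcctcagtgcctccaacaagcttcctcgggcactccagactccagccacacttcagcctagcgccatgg
Nfkbia: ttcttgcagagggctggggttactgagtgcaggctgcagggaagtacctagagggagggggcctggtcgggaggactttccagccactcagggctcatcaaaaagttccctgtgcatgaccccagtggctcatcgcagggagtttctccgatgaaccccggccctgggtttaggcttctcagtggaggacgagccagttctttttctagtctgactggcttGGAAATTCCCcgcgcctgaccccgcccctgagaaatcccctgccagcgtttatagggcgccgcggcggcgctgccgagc
The motif stood at 1 place in Il6, from position -44 relative to the start, and at 1 place in Nfkbia, from -29. It stood at 2 places in Cxcl1 and in Cxcl2, the first from -89 and -97.

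Genes of lymphoid stroma, the fibroblasts that house lymphocytes in lymphoid organs, leaned the same way. Of 18 tested, 11 were higher in omentum and 0 lower, with a median log2 fold change of 1.58. Cxcl13, given above, is 1 of them. Enpp2, which encodes autotaxin, the enzyme that makes lysophosphatidic acid, measured 6548, 5725 and 5294 CPM in omentum and 399, 313 and 351 CPM in epididymal fat (4.05 ± 0.28, adjusted p = 2.77e-12). Cxcl12, which holds many leukocytes and progenitors in place, measured 1223, 784 and 1092 CPM against 378, 408 and 314 CPM (1.49 ± 0.38). Both genes parted the groups. Clu, a secreted chaperone, was higher by 3.88 ± 0.38, and Il7, a survival factor for lymphocytes, by 2.82 ± 0.38. Ch25h, whose product leads to an oxysterol that guides B cells, was higher by 3.16 ± 0.50, and Cxcl16 by 1.15 ± 0.20. Omentum fibroblasts held 20.6% of the omentum mesothelial mean of Clu, 31.9% of Il7, 47.1% of Cxcl16, 55.2% of Ch25h and 58.9% of Enpp2. Cxcl13 (4250%) and Cxcl12 (11300%) stood above that mean. The part of mesothelial cells in these values was not tested.

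Ccl19, a guide of T cells and dendritic cells, was higher by 2.22 ± 0.69, but the call did not hold without any 1 of the 6 libraries (adjusted p from 0.0556 without omentum replicate 2 to 0.12 without epididymal replicate 1). The adhesion gene Vcam1 (1.04 ± 0.32) lost its call without omentum replicate 1 or 3 or any 1 of the epididymal libraries (adjusted p = 0.0677 and 0.112, then 0.0861, 0.152 and 0.0542). Ccl21a, Tnfsf11, Tnfsf13b, Madcam1, Ltbr, Cr2 and Bst1 were not called. Leukocyte markers moved with this list (415 to 583 CPM against 40.7 to 99.1 CPM), and their part was not tested. With omentum replicate 2 as the only omentum library the count was 5 in place of 11.

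Set against the other fibroblasts, omentum had the highest Cxcl13 mean of the 9 tissues at 3150 CPM. It was followed by lymph node (1240 CPM), brown fat (476 CPM), spleen (408 CPM) and inguinal fat (304 CPM), with epididymal fat at 17.2 CPM and mesentery at 13.1 CPM. Enpp2 (5860 CPM) and Cxcl12 (1030 CPM) were second to lymph node (9790 and 7830 CPM). Ccl19 reached 8000 CPM in lymph node, against 39.2 CPM in omentum.

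Complement genes, whose proteins tag and lyse microbes, were higher in omentum in 6 of 18 cases and lower in 0 (median 1.16). C4b, a component of the classical pathway, measured 2401, 2306 and 2407 CPM in omentum and 120.1, 160.4 and 189.7 CPM in epididymal fat (3.92 ± 0.30, adjusted p = 4.27e-11). C3, on which the complement pathways converge, was at 14590 to 17350 CPM against 7180 to 7712 CPM (1.10 ± 0.19), and C2 (434 to 552 CPM against 118 to 129.8 CPM) and Cfb (1294 to 1462 CPM against 342 to 389.7 CPM), which form the enzymes that cleave it, were higher as well. The groups of these 4 genes did not overlap. Omentum fibroblasts held 17.4% of the omentum mesothelial mean of C2, 48.7% of Cfb, 89.9% of C3 and 841% of C4b. The part of mesothelial cells in these values was not tested. Cfp and Masp1 made up the 6, but Cfp was not called without any 1 of the 6 libraries (adjusted p from 0.064 without omentum replicate 1 to 0.195 without epididymal replicate 2) and Masp1 not without omentum replicate 1 or 2 or epididymal replicate 2 or 3 (adjusted p = 0.068, 0.0608, 0.162 and 0.104). C1ra (1406 to 1871 CPM against 1039 to 1209 CPM), C1s1 and Serping1 were not called. With omentum replicate 2 as the only omentum library 3 complement genes were called. Of 16 acute phase genes, 1 was higher and 1 lower, where 5.39% and 2.65% of all genes were. The higher gene was Pla2g5, at 0.373 to 0.608 CPM and no count in epididymal fat. The lower gene was Pla1a, a phospholipase, at 269 to 319 CPM against 855 to 988 CPM.

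Antigen presentation genes were higher in 11 of 14 cases (median 1.69) and interferon-stimulated genes in 6 of 18 (median 0.74), with 0 lower in either list. Class I molecules show peptides from inside the cell. H2-K1 was at 920.2 to 1270 CPM against 353 to 446 CPM (1.43 ± 0.18), and B2m at 1387 to 2031 CPM against 821 to 861 CPM (1.03 ± 0.20), the latter under the minimum fold without omentum replicate 1 (0.90). Class II genes, which mark cells that show peptides to helper T cells, differed more. H2-Ab1 measured 105, 56.2 and 74.99 CPM against 7.36, 3.83 and 6.89 CPM (3.71 ± 0.60). It moved with Cd74 (463, 326 and 296 CPM against 44.6, 17.4 and 43.6 CPM) and the B cell markers, whose part was not tested, and omentum mesothelial cells had H2-Ab1 at 186 CPM. H2-Aa lost its call without epididymal replicate 2 (adjusted p = 0.0802).

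Of the interferon-stimulated genes, the guanosine triphosphatases Iigp1 (1.69 ± 0.20), Irgm1 (1.23 ± 0.18), Gbp2 (1.23 ± 0.19) and Igtp (1.08 ± 0.19) were higher with Isg15 (1.21 ± 0.32) and Irf1 (1.30 ± 0.38), while Ifit1, Ifit3, Mx1, Rsad2 and Stat2 were not called. Irf1 lost its call without omentum replicate 1 or 3 or epididymal replicate 2 or 3 (adjusted p = 0.0739, 0.0657, 0.149 and 0.0503). With omentum replicate 2 as the only omentum library, 5 antigen presentation genes and 4 interferon-stimulated genes were called. Leaving out 1 library at a time gave 7 to 13 and 5 to 8, the 7 without omentum replicate 1.

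**Figure D4:**
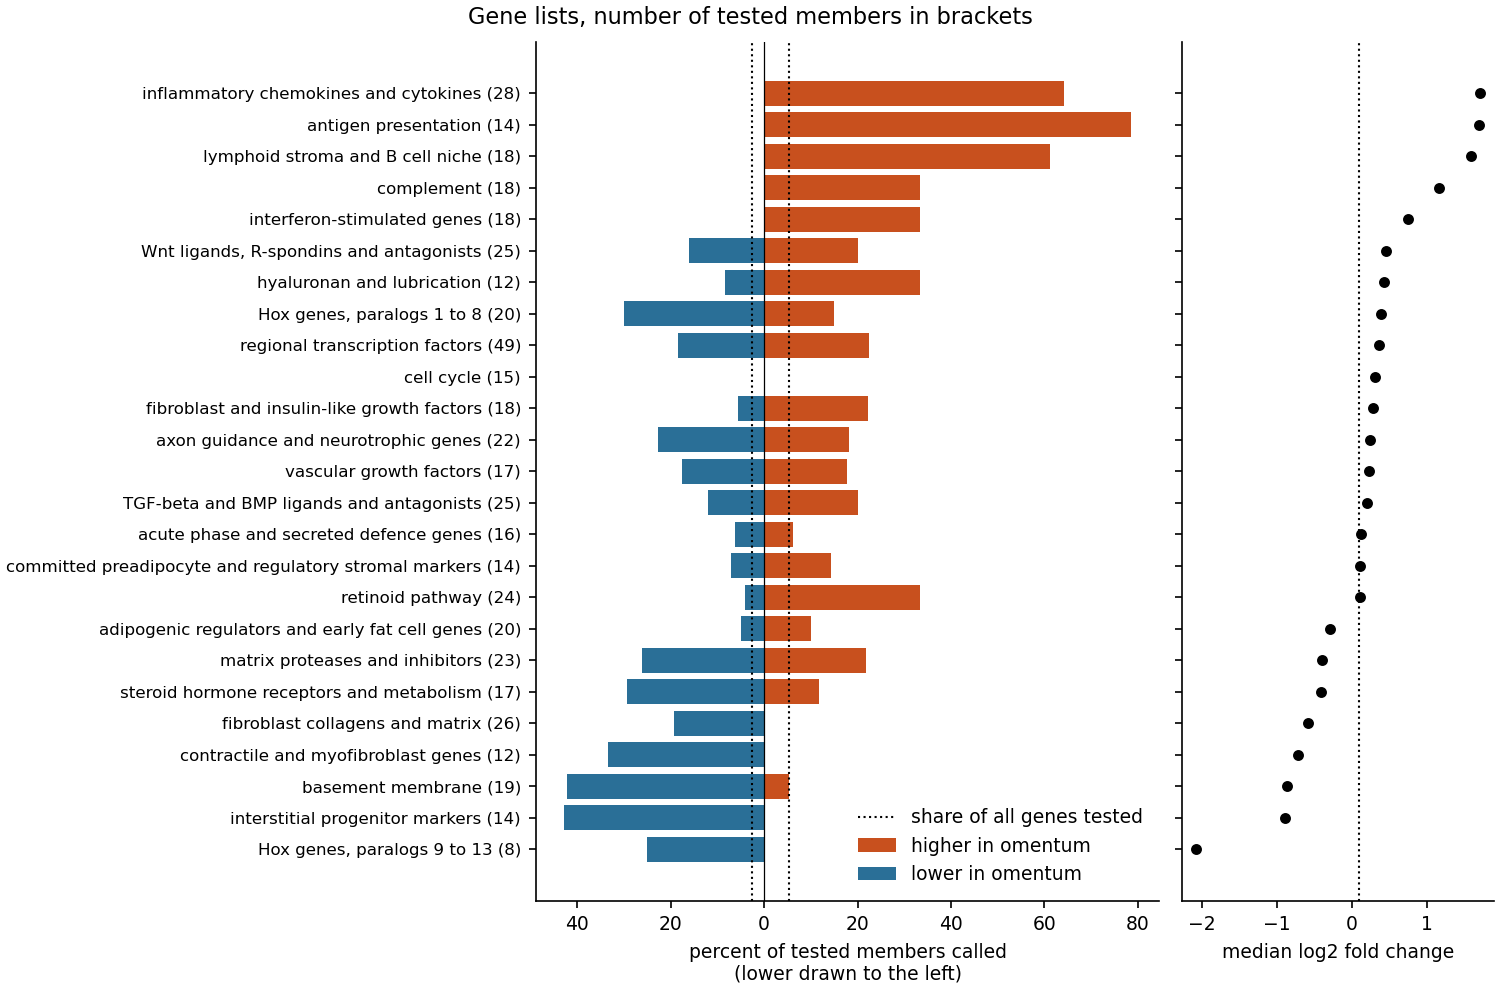
Percent of the tested members of each gene list called higher (right) or lower (left) in omentum fibroblasts, with dotted lines at the shares of all genes (5.39% and 2.65%), beside the median log2 fold change of each list, with a dotted line at the 0.09 of all genes. The inflammatory list has 18 of 28 genes to the right and 0 to the left, and the interstitial progenitor list 0 to the right and 6 of 14 to the left.

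Retinoid genes differed in both directions. Retinoic acid is made from retinol by a retinol dehydrogenase and then a retinal dehydrogenase, and a gene of each step was much higher in omentum. Aldh1a2, a retinal dehydrogenase that acts in the embryonic mesoderm, measured 544, 476 and 495 CPM in omentum and 19.6, 13.99 and 12.1 CPM in epididymal fat (5.05 ± 0.47, adjusted p = 1.25e-08). Rdh10, a retinol dehydrogenase, measured 119, 94.9 and 122 CPM against 14.4, 10.5 and 11.6 CPM (3.20 ± 0.25, adjusted p = 5.95e-11). Neither gene's libraries came near an overlap. Aldh1a3, a related retinal dehydrogenase, ran the other way at 58.4, 64.95 and 74.5 CPM against 200.5, 231 and 247 CPM (-1.78 ± 0.23), and Aldh1a1, the third, was at 324 to 352 CPM against 366 to 458 CPM and was not called. In all, 8 of 24 genes were higher and 1 lower, and the median of 0.10 was near that of all genes.

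The other 6 that were higher were Dhrs9 (4.18 ± 0.39), Rbp4 (2.02 ± 0.34), Rarres1 (6.51 ± 0.76), Rxrg (3.10 ± 0.57), the breakdown enzyme Cyp26b1 (2.73 ± 0.49) and the retinol transporter Stra6 (2.02 ± 0.62). Stra6 lost its call without omentum replicate 1 or epididymal replicate 2 or 3 (adjusted p = 0.15, 0.175 and 0.0796), and the retinoic acid receptors Rara, Rarb and Rarg were not called. Omentum mesothelial cells had Aldh1a2 at 510.0 CPM and Rdh10 at 72.4 CPM. Omentum fibroblasts held 99.0% and 154% of those levels. Dhrs9 stood at 10.3%, Rarres1 at 22.5% and Stra6 at 6.98% of the omentum mesothelial mean, and Rbp4, Rxrg and Cyp26b1 at 848%, 396% and 365%. The part of mesothelial cells in these values was not tested. Of 18 genes of the list with a promoter in the RefSeq table, 0 held the direct repeat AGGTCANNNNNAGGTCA on either strand, which 0.00913% of all promoters held.

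Transcription factors that pattern the trunk differed in both directions, 11 of 49 higher and 9 lower. Wt1, a zinc finger factor of the lining of the body cavity and of visceral fat, measured 183, 195 and 189 CPM in omentum and 56.9, 32.7 and 61.6 CPM in epididymal fat (1.91 ± 0.31, adjusted p = 3.86e-05). Tcf21, a factor of visceral fat stroma, was at 112 to 169 CPM against 120.4 to 159.7 CPM (-0.02 ± 0.40) and was not called. Wt1 thus parted the groups and Tcf21 overlapped. Isl1 (6.83 ± 0.47), Hand2 (5.49 ± 0.53), Gata5 (4.35 ± 0.53), Tbx4 (4.03 ± 0.66) and Foxf1 (3.49 ± 0.54) were higher in omentum, all but Isl1 at 6.72 CPM or less. Barx1, known from the mesenchyme of the stomach, was at 2.34 to 3.57 CPM and Lhx8 at 1.39 to 1.96 CPM in omentum, with no count of either in epididymal fat. Tbx5 (1.71 ± 0.42) and Six2 (1.89 ± 0.45) were higher too, but not without epididymal replicate 2 (adjusted p = 0.0576 and 0.0616), and Nkx3-2, at 0.249 to 0.583 CPM, not without omentum replicate 1 or any 1 of the epididymal libraries (adjusted p = 0.122, then 0.0563, 0.123 and 0.11).

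Among those lower in omentum were Nr2f1 (-4.27 ± 0.45), Tbx18 (-3.06 ± 0.37), Foxp2 (-2.81 ± 0.33), Meox1 (-2.64 ± 0.36), Emx2 (-4.32 ± 0.97) and Tbx3 (-2.05 ± 0.35), and Meox1, a homeobox factor of the somites, was at 2.38 to 3.21 CPM against 12.8 to 20.6 CPM. Gata4 was at or below 0.348 CPM in all 6 libraries, and Gata6, at 24.7 to 38.5 CPM against 15.97 to 24.1 CPM, was not called. Twist1 and Alx4 were lower too, but lost their calls in 10 and 9 of the 14 alternative fits. Twist1 was called without epididymal replicate 3 and lost without any other single library (adjusted p from 0.0773 to 0.262), and Alx4 was called without omentum replicate 3 or epididymal replicate 3 and lost without any other (from 0.0627 to 0.207). Of 28 genes with the largest changes and a promoter in the RefSeq table, 8 (28.6%) held the letters TGATAA or AGATAA on either strand, which GATA factors can bind. They were Isl1, Krt76, Epyc and Mgam and the pancreatic genes Amy2a1, Amy2b, Rnase1 and Try4. Of all single promoters 18.6% held these letters, a share that is not on the same measure, since a gene counted if any of its promoters matched.

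Hox genes, whose nested expression marks position along the body axis, differed most in the Hoxc cluster. Of 20 tested genes of paralog groups 1 to 8, 6 were lower and 3 higher in omentum, while the median log2 fold change of the 20 had the other sign, at 0.39. Hoxc8 measured 0.177, 0.298 and 0.117 CPM in omentum and 20.5, 22.9 and 23.1 CPM in epididymal fat (-6.76 ± 0.42, adjusted p = 2.51e-13). Hoxc6 measured 0.152, 0.0249 and 0.0586 CPM against 7.33, 6.66 and 5.13 CPM (-6.27 ± 0.58), and Hoxd8 (-4.65 ± 0.53), Hoxa7 (-2.67 ± 0.31), Hoxc4 (-2.08 ± 0.40) and Hoxc5 (-1.88 ± 0.26) were lower as well. These 6 calls were made in each of the 14 alternative fits. Of the anterior genes, Hoxa5 (1.57 ± 0.33) was higher, and Hoxa2 (1.64 ± 0.52) too, but not without omentum replicate 1 or any 1 of the epididymal libraries (adjusted p = 0.208, then 0.142, 0.0895 and 0.0758). In paralog groups 9 to 13, Hoxc9 and Hoxc10 were lower and 0 higher among 8 tested, at 3.36 CPM or less, Hoxc9 not without epididymal replicate 2 and Hoxc10 not without omentum replicate 2 (adjusted p = 0.0608 and 0.0568). Mesothelial cells of the same fats had a like step in Hoxc8, 0.323 CPM in omentum and 21.6 CPM in epididymal fat. Mesentery fibroblasts stood between, at 10.5 CPM.

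Markers of interstitial progenitors, the least committed fat cell precursors, were lower in omentum in 6 of 14 cases and higher in 0 (median -0.90). In each alternative fit 6 were called lower. The log2 fold changes of the list ran from -3.67 to 0.99, so not all members went the same way. With RLE scaling, upper-quartile scaling or DESeq2, 1 member was called higher. Dpp4, a surface peptidase that marks these cells, measured 52.6, 64.05 and 58.1 CPM in omentum and 388, 442 and 445 CPM in epididymal fat (-2.87 ± 0.23, adjusted p = 7.5e-11). Pi16, a secreted peptidase inhibitor of the same cells, measured 216, 159 and 147 CPM against 428, 796 and 437 CPM (-1.67 ± 0.30). Both markers parted the groups, Dpp4 by the wider margin. Limch1 (-3.67 ± 0.28), Stmn4 (-3.30 ± 0.32), Efhd1 (-2.52 ± 0.35) and Bmp7 (-1.76 ± 0.25) were lower as well. Anxa3 (-0.89 ± 0.22) and Sema3c (-0.83 ± 0.19) passed the p threshold under the minimum fold, and Cd34, Ly6a, Ly6c1 and Cd55, which many fibroblasts share, were not called. Across tissues, Dpp4 was highest in brown fat (739 CPM) and inguinal fat (715 CPM), and only lymph node (37.2 CPM) had a lower mean than omentum (58.3 CPM).

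Of 20 adipogenic regulators and early fat cell genes, 2 were higher and 1 lower (median -0.30), where 8.04% of all genes were called. Pparg, the nuclear receptor that drives fat cell formation, measured 16.3, 18.3 and 24.2 CPM in omentum and 11.6, 11.3 and 14.3 CPM in epididymal fat (0.66 ± 0.48) and was not called, and neither were Cebpa, Fabp4 and Lpl. Ebf2, a factor of fat precursors, was lower at 96.8, 129 and 167 CPM against 343, 345 and 397 CPM (-1.46 ± 0.29). Gpd1 (4.38 ± 0.54), which supplies glycerol phosphate, and Cebpb (1.63 ± 0.42) were higher, the latter not without epididymal replicate 3 (adjusted p = 0.0585). Of 14 committed preadipocyte and regulatory stromal markers, Icam1 (1.71 ± 0.40) and Dlk1 (3.37 ± 0.73) were higher and Mme (-1.42 ± 0.32) lower. Mature adipocyte markers summed to 21.6 to 28.1 CPM against 24.6 to 32.9 CPM.

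Matrix genes were lower in omentum where they differed. Of 26 collagens and other matrix genes, 5 were lower and 0 higher, with a median of -0.59. Fbn1, the main protein of microfibrils, measured 744, 942 and 956 CPM in omentum and 2085, 2715 and 2064 CPM in epididymal fat (-1.38 ± 0.22). Col5a3 (-1.81 ± 0.27), Col8a1 (-2.29 ± 0.58) and Thbs2 (-1.55 ± 0.32) were lower as well, Col8a1 not without omentum replicate 2 (adjusted p = 0.0765). Col6a2 (-1.03 ± 0.30) missed the fold or the p threshold in 10 of the 14 alternative fits, among them those without omentum replicate 1 or 2 or epididymal replicate 1 or 2 (adjusted p = 0.0712, 0.183, 0.127 and 0.107). The count of lower genes ranged from 3 to 8 when 1 library was left out, the 3 without omentum replicate 2 and the 8 without omentum replicate 3. The main fibrillar collagens were not called. Col3a1 was at 6186 to 8493 CPM against 7200 to 12300 CPM and Col1a1 at 469 to 943 CPM against 639.8 to 1616 CPM, with overlap in both, and Dcn, a proteoglycan that decorates collagen, was at 15430 to 18900 CPM against 19960 to 22060 CPM.

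Basement membrane genes leaned further, with 8 of 19 lower and 1 higher (median -0.87). Laminins form the sheet of a basement membrane, and the chains Lama2 (-1.14 ± 0.22), Lama4 (-1.63 ± 0.21), Lamb1 (-1.18 ± 0.24) and Lamc1 (-1.55 ± 0.24) were all lower. So were Nid1 and Nid2, which link laminin to collagen, with Nid1 at 1238, 1252 and 1580 CPM against 3040, 3389 and 2750 CPM (-1.17 ± 0.20). The groups of Nid1 did not overlap. Type IV collagen chains Col4a3 (-1.56 ± 0.38) and Col4a4 (-1.95 ± 0.26) completed the 8, while Col4a1 (-0.83 ± 0.24) and Col4a2 (-0.87 ± 0.27) lay under the minimum fold. Lama5 was the 1 gene higher (2.12 ± 0.64), at 1.37 to 2.96 CPM against 0.433 to 0.637 CPM, and lost its call in 5 of the 6 fits without 1 library (adjusted p from 0.0601 to 0.105; it held without omentum replicate 2).

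Enzymes that cut matrix moved both ways, 5 of 23 higher and 6 lower. A pair of aggrecanases ran in opposite directions. Adamts4 measured 722, 878 and 1207 CPM in omentum and 125, 51.5 and 131 CPM in epididymal fat (3.19 ± 0.63), and Adamts5 measured 211, 208 and 261 CPM against 800.3, 785 and 908 CPM (-1.88 ± 0.22). Neither overlapped between the groups. Mmp3 (2.17 ± 0.31), Adamts1 (1.67 ± 0.33) and Adamts9 (2.71 ± 0.27) were higher, as was the inhibitor Timp1 (1.04 ± 0.32), which lost its call without omentum replicate 3 or epididymal replicate 1 or 3 (adjusted p = 0.144, 0.0983 and 0.11). Mmp2 (-1.18 ± 0.23), Mmp11 (-1.61 ± 0.25), Timp4 (-2.61 ± 0.45) and Adamts16 (-2.46 ± 0.34) were lower, and Adamts12 (-1.01 ± 0.31) was lower too but missed the fold or the p threshold in 11 of the 14 alternative fits. Those were in part the fits without omentum replicate 1 or 2 or epididymal replicate 2 or 3 (adjusted p = 0.135, 0.132, 0.0737 and 0.0866).

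Hyaluronan genes were higher in 4 of 12 cases and lower in 1. Has1, a synthase of hyaluronan, measured 3575, 2900 and 4390 CPM in omentum and 726, 233 and 379 CPM in epididymal fat (3.02 ± 0.56, adjusted p = 0.000433). Tnfaip6, which links protein chains to hyaluronan, measured 3737, 3556 and 4614 CPM against 1261, 548 and 1050 CPM (2.06 ± 0.39). As for Il6 and Cxcl1, epididymal replicate 2 was lowest for both. Cd44, the hyaluronan receptor, was higher by 1.16 ± 0.25, and Has2 by 1.10 ± 0.33, the latter not without omentum replicate 3 or epididymal replicate 2 (adjusted p = 0.103 and 0.164). Vcan, a proteoglycan that binds hyaluronan, was lower (-1.19 ± 0.17).

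Secreted signals differed gene by gene. Of 25 Wnt ligands, R-spondins and antagonists, 5 were higher and 4 lower. Wnt4, a ligand, measured 45.2, 33.95 and 33.1 CPM against 0.956, 0.713 and 0.525 CPM (5.68 ± 0.36), and Dkk3, a secreted protein of the Dickkopf family, measured 304, 274 and 244 CPM against 16.4, 17.3 and 16.2 CPM (4.04 ± 0.33). Both stood far above epididymal fat in each omentum library. Omentum fibroblasts held 27.4% of the omentum mesothelial mean of Dkk3 and 119% of Wnt4, and the part of mesothelial cells was not tested. The antagonists Dkk2 (3.09 ± 0.31) and Frzb (3.71 ± 0.71) and the R-spondin Rspo3 (1.55 ± 0.31), which strengthens Wnt signals, were higher as well. Sfrp2, a Wnt-binding protein, was lower at 7.55 to 10.9 CPM against 47.97 to 80.4 CPM (-2.69 ± 0.28), and Wnt10b and Rspo2 were lower at 1.99 CPM or less, Rspo2 not without epididymal replicate 2 (adjusted p = 0.138). Wif1 was called lower, but it had 5.74 CPM in epididymal replicate 1 and no count in the other 5 libraries, and the call was lost without any 1 of the omentum libraries (adjusted p = 0.0846, 0.102 and 0.0861). Axin2, a common readout of Wnt signalling, was not called (0.14 ± 0.26).

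Of 25 TGF-beta and BMP genes, 5 were higher and 3 lower. Ltbp2 (2.79 ± 0.69), a protein of microfibrils, the BMP antagonist Grem1 (2.91 ± 0.74), and the ligands Bmp3 (1.82 ± 0.39) and Gdf15 (1.76 ± 0.54) were higher, Gdf15 not without any 1 of the libraries but omentum replicate 2 (adjusted p from 0.0764 to 0.104). The ligands Bmp5 (-3.77 ± 0.52) and Bmp6 (-2.43 ± 0.38) were lower, with Bmp7. Among growth factors, 4 of 18 were higher and 1 lower (Fgf16, at 0 to 0.127 CPM against 0.354 to 0.832 CPM). Fgf1 measured 337, 254 and 227 CPM against 80.5, 63.3 and 72.97 CPM (1.91 ± 0.24), and Igfbp5, which binds insulin-like growth factors, measured 317, 232 and 219.6 CPM against 41.6, 66.5 and 47.7 CPM (2.30 ± 0.24). Both parted the groups, and both were higher in omentum mesothelial cells, at 902 and 1310 CPM. Igfbp4 lost its call without omentum replicate 1 or epididymal replicate 1 or 3 (adjusted p = 0.159, 0.0524 and 0.139), and Hgf without omentum replicate 3 or epididymal replicate 1 or 2 (adjusted p = 0.0717, 0.0681 and 0.121).

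Of 17 vascular factors, Vegfa (5.92 to 8.54 CPM against 1.36 to 2.29 CPM), Pdgfa (2.28 ± 0.42) and Apln (2.02 ± 0.33) were higher in omentum, and Angpt1 (-1.98 ± 0.26), Angptl1 and Angptl4 lower, Angptl4 with a log2 fold change under 1 in size in 9 of the 14 alternative fits, among them those without omentum replicate 2 or epididymal replicate 1 or 2 (-0.79, -0.94 and -0.96). Of 22 axon guidance and neurotrophic genes, 4 were higher (Sema3a, Sema3f, Sema5a and Bdnf) and 5 lower (Sema3d, Sema3e, Ntn4, Robo1 and Ntf3), Ntf3 under the minimum fold without omentum replicate 2 (-0.98). Steroid genes leaned to epididymal fat, with 5 of 17 lower in omentum and 2 higher. Hsd11b1, which regenerates active glucocorticoid, measured 66.98, 42.4 and 55.3 CPM in omentum and 430.1, 335 and 440.4 CPM in epididymal fat (-2.87 ± 0.28, adjusted p = 6.5e-09). Star, which carries cholesterol into mitochondria for steroid synthesis, ran the other way at 274, 359.8 and 270.4 CPM against 23.1, 19.8 and 28.9 CPM (3.65 ± 0.32, adjusted p = 5.2e-10). Each was apart between the groups in every library. Cyp7b1, an oxysterol hydroxylase, was higher (1.86 ± 0.29), and Esr1 (-1.15 ± 0.21), Srd5a1 (-2.03 ± 0.20), Akr1c18 and Sult1e1 were lower, Akr1c18 not without omentum replicate 1 or 3 or epididymal replicate 2 (adjusted p = 0.0861, 0.0686 and 0.117) and Sult1e1 not without omentum replicate 2 (adjusted p = 0.131). The glucocorticoid receptor gene Nr3c1 was not called.

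Contractile genes were lower in 4 of 12 cases (Cnn1, Actg2, Itga8 and Lmod1), at 11.3 CPM or less. The count fell to 1 without epididymal replicate 2, the library with the most Cnn1 (9.003 CPM), where Cnn1, Actg2 and Lmod1 lost their calls (adjusted p = 0.316, 0.0559 and 0.0698), and Lmod1 was also lost without omentum replicate 1 (0.0534). Of 15 cell cycle genes 0 were called, and Mki67 was at 7.39 to 12.8 CPM against 3.52 to 7.19 CPM.

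Whether the step from epididymal fat to omentum differed between fibroblasts and the mesothelial cells of the same fats was tested in the same fit, with 6 further libraries. The difference of the log2 fold changes was called for 2935 genes (11.4%), 2179 of them higher in fibroblasts (8.48%) and 756 lower (2.94%). Its median over all genes was 0.34, against which single values are to be read. Without omentum fibroblast replicate 2 the calls fell to 931 higher and 522 lower, and without omentum mesothelial replicate 2 to 1204 and 579. The fibroblast step enters this difference, so genes chosen by that step are favoured to be called in the same direction. The shares that follow are therefore a description and were not tested. Of the 1385 genes higher in omentum fibroblasts, 701 (50.6%) had a step called larger than in mesothelial cells, and of the 681 lower genes 231 (33.9%) a step called further down. Isl1 was such a gene, since mesothelial cells had 149 CPM in omentum and 103 CPM in epididymal fat, and fibroblasts 71.3 and 0.646 CPM (difference 6.30 ± 0.56). So were Enpp2 (2.70 ± 0.35), Dkk2 (4.75 ± 0.68) and Ptgs2 (3.29 ± 0.65).

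For Cxcl1, Cxcl2, Il6 and Has1 the difference between the cell types was not called. Cxcl1 had 4190 CPM in omentum and 551 CPM in epididymal mesothelial cells, a difference of -0.94 ± 0.63. It was -0.21 ± 0.84 for Cxcl2, -0.62 ± 0.68 for Il6 and 0.56 ± 0.73 for Has1. These errors are wide, and a p that misses the threshold does not show that the steps are alike. Has2 rose further in mesothelial cells (-4.77 ± 0.86). Of the progenitor markers, Dpp4 was near equal in omentum and epididymal mesothelial cells (743 and 756 CPM), while it differed in fibroblasts (-2.84 ± 0.31), and Hoxc8 had a step in both (-0.71 ± 0.68, not called).

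**Figure D5:**
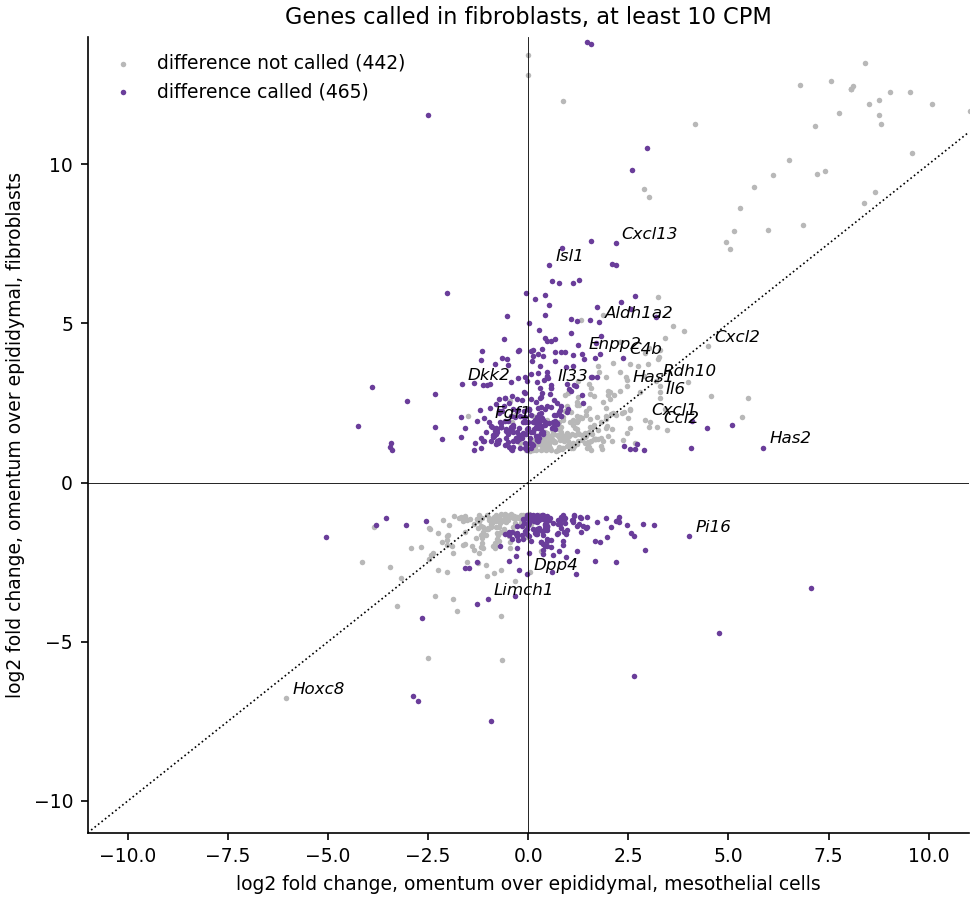
Log2 fold change of omentum over epididymal fat in fibroblasts (vertical) against mesothelial cells (horizontal) for the 907 genes called in fibroblasts with at least 10 CPM, 905 of them inside the axes; colour marks the 465 genes whose difference between the cell types was called, and the dotted line is equality. Of the 564 genes higher in omentum fibroblasts 422 lie above 0 in mesothelial cells too, and of the 343 lower genes 205 lie below 0.

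The place of both fats among the 9 fibroblast tissues was described by their means. Of the 564 genes higher in omentum at 10 CPM or more, omentum had the highest mean of the 9 tissues in 310 (55.0%). Epididymal fat had the lowest in 61 (10.8%). Over all 8453 tested genes with at least 10 CPM in either group, these shares were 10.1% and 3.12%. Of the 343 lower genes, epididymal fat had the highest mean in 106 (30.9%) and omentum the lowest in 93 (27.1%), against 11.6% and 16.4% of all. Mesentery, the third visceral fat, lay nearer to epididymal fat than to omentum in 469 of the 564 (83.2%) and in 224 of the 343 (65.3%). It did so in 66.4% of all genes at that level, so the share of the lower genes is that of all genes. The genes were chosen for a difference between these very groups, which favours such ranks, so the counts are a description and were not tested. Star was at 301 CPM in omentum and at most 35.9 CPM in the other 8 tissues. Il6 and Has1 were also highest in omentum, at 1300 and 3620 CPM, ahead of mesentery for Il6 (328 CPM) and brown fat for Has1 (1150 CPM). Aspn ran the other way, at 692 CPM in mesentery, 1190 CPM in bone and 81.4 CPM in lymph node, all above the 21.8 CPM of omentum.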

How the data were processed

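PolyA RNA of sorted mouse stromal cells was sequenced in 34 libraries. The deposited values are raw counts of reads that aligned uniquely to each gene model, per the file headers. The copies Amy2a2, Amy2a3 and Amy2a4 had equal means all the same, which counts of unique reads would not be likely to give. Salmon and GRCm38 are named in the submitters' processing notes, while the annotation release, strand setting and filters are not given in the sources used here. Of 51826 gene identifiers, 51633 were matched to a symbol.

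All libraries entered 1 fit of edgeR 4.0.16 (R 4.3.3) with a coefficient for each group. It used TMM scaling, filterByExpr with a minimum count of 10, the robust quasi-likelihood F-test and Benjamini-Hochberg adjustment over 25705 genes. A gene was called at an adjusted p below 0.05 with a log2 fold change of 1 or more in size. Errors are standard errors of that fold change. CPM are counts scaled to the library total. The script was tested on simulated data. Named genes are the 12 largest changes per direction whose higher group averaged 10 CPM or more and whose libraries did not overlap, up to 4 members of each list by adjusted p, and a few genes named by symbol. For the comparison with mesothelial cells, the 5 largest called differences per direction were named as well. Some genes that this rule or the lists hold are counted but not reported here by name. Other members were added after their values were seen. The members and lists were chosen with earlier results of these data known. Replicates of a group differed by more than counting noise, with chi-square values per degree of freedom of 24.8 to 44.4. At 28778822 counts or more a library, counting error is small beside the spread between libraries for all but the lowest genes. Alternatives were RLE and upper-quartile scaling, no filter, DESeq2 1.42.0, the groups compared alone, a replicate block, no minimum fold and each library left out. Leaving out mesothelial libraries, and keeping omentum replicate 2 alone, were added after seeing the data. Promoters are from the RefSeq table of GRCm38.p6 and span 250 bases before to 50 after the start.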

Additional observations from a re-analysis of the deposited data

Results flagged for a closer look

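For 15 named genes the step from epididymal fat to omentum differed between fibroblasts and mesothelial cells. The test was edgeR's quasi-likelihood test of the difference of log2 fold changes with Benjamini-Hochberg adjustment. These 15 were taken from the largest called differences, up to 5 per direction, and from a fixed set of symbols. Other genes described above, such as Isl1 and Enpp2, differed too. For those taken by size, this same test picked them, so their p-values are no separate support. A positive value means a step further toward omentum in fibroblasts. Over all genes the median of these values was 0.34.

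The chemokine Cxcl13 had a difference of 5.33 ± 0.74 (adjusted p = 2.37e-05), with mesothelial means of 74.1 CPM in omentum and 16.4 CPM in epididymal fat. The retinal dehydrogenase Aldh1a2 had 3.29 ± 0.58 (adjusted p = 0.000359), with 491 to 535 CPM in omentum and 142 to 165 CPM in epididymal mesothelial cells, and the alarmin Il33 had 2.47 ± 0.34 (adjusted p = 5.69e-06), with 533 and 356 CPM. The transcription factor Wt1 had 1.65 ± 0.43 (adjusted p = 0.0101), with 192 and 161 CPM. Mesothelial cells of both fats thus stood above epididymal fibroblasts for Aldh1a2, Il33 and Wt1.

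The progenitor marker Pi16 fell in omentum fibroblasts and was higher in omentum mesothelial cells, at 12.5 CPM against 0.761 CPM, a difference of -5.68 ± 0.49 (adjusted p = 1.62e-09). Mmd2 had a difference of -6.57 ± 1.07 (adjusted p = 7.51e-05) and Epyc of -8.69 ± 1.40 (adjusted p = 7.36e-05), both under 1 CPM on average in mesothelial cells of either fat. Stmn4 had -10.35 ± 1.17 (adjusted p = 1.18e-07) and Duoxa1 -9.48 ± 2.37 (adjusted p = 0.0075). Neither of these had a count in epididymal mesothelial cells, so the fitted size depends on the prior count.

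Pparg, the regulator of fat cell formation, had a difference of 5.01 ± 1.16 (adjusted p = 0.00439), with 0.0880 CPM in omentum and 1.63 CPM in epididymal mesothelial cells. The cardiac and mesodermal factor Gata4 had 4.56 ± 1.33 (adjusted p = 0.0171), at 0.353 and 2.55 CPM. The water channel Aqp5 had 9.34 ± 1.39 (adjusted p = 2.31e-05), at 10.2 and 8.12 CPM in mesothelial cells and no count in epididymal fibroblasts. The immunoglobulin segments Ighv11-2 (12.34 ± 3.25, adjusted p = 0.0147), Igkv14-126 (12.21 ± 3.53, adjusted p = 0.0244) and Igkv4-55 (14.03 ± 3.40, adjusted p = 0.00617) also had no count in epididymal fibroblasts, and their sizes depend on the prior count.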

How the results depend on the processing

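Called genes numbered 2066, with 2096 under RLE scaling, 2070 under upper-quartile scaling, 2794 of 46027 genes with no filter, 2032 with DESeq2 and 2184 with the compared groups alone. Of the main calls, 86.4% to 97.5% were made again under the scalings, no filter and DESeq2, 72.9% to 84.2% with 1 library left out, and 57.6% with omentum replicate 2 as the only omentum library. That last fit called 335 lower genes in place of 681, and the lone library is assumed to vary like the other groups. Without the minimum fold 1211 genes were lower. With 1 library left out, calls numbered 1553 to 1986, with 1020 to 1431 higher and 513 to 669 lower.

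The difference between fibroblasts and mesothelial cells moved more. Without 1 fibroblast library its calls ranged from 1453 to 3450, with 931 to 2681 higher and 522 to 769 lower. The low end was without omentum replicate 2, and without epididymal replicate 2 there were 1771 calls, 1173 of them higher. Without 1 mesothelial library they ranged from 1783 to 3807, with 1204 to 2688 higher and 579 to 1119 lower, the low end without omentum mesothelial replicate 2. Without the minimum fold 1186 genes were lower. Upper-quartile scaling moved its median over all genes from 0.34 to 0.47.

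The replicate block gave 2084 calls in all libraries and 1998 in the compared groups, and 2915 and 2138 for the difference between cell types. Same-numbered libraries had deviations that correlated at 0.032, -0.244 and -0.105, so the numbers were not taken to pair the samples, and not every library correlated best with its own number. With 1 library left out, the value of Wif1 ranged from -9.57 to 0.00 (-8.96 with all libraries), and it was 0.00 without epididymal fibroblast replicate 1, since no other library had a count. Of 306 named or listed genes 259 were called, and 171 of them kept the call in all 14 alternatives. Of 1120 recomputed list counts, 120 moved by more than 1.5 times. The cause of these changes was not tested.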
